A study of Mus musculus with 48 samples.

Results

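The genes described here are 40 genes whose products fold, modify, import or remove proteins in the endoplasmic reticulum, or signal when unfolded protein builds up there. They were listed by name, and each was read from its probe set of highest mean level over all 48 arrays among the probe sets with a single gene symbol. All 40 were measured, out of 18194 genes in all. By role they are 11 chaperones and their partners, 8 enzymes of disulfide formation, 7 parts of the import machinery, 7 parts of the degradation machinery and 7 parts of stress signalling.

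The tissue was the pars tuberalis, the thin layer of the pituitary around its stalk, of male CBA/N mice, and expression was measured on single-colour arrays. Each array held RNA pooled from 25 animals, punched with a 0.5 mm needle out of frozen brain slices 0.5 mm thick. All animals first spent 3 weeks on short days of 8 h light. The short-day group then stayed on short days and the long-day group moved to days of 16 h light for 2 weeks, and both were 8 weeks old. The other 2 groups were 6 weeks old and were taken on their first long day. In advance, lights came on 8 h early, at the ZT16 of the short day, and in delay, darkness came 8 h late, at ZT16. ZT counts hours from lights-on, by the short-day schedule in both first-day groups. Each condition had 12 arrays, 2 at each of 6 time points 4 h apart. The series' design text says that the procedure was repeated to give the 2 replicates, and no label ties a replicate number to a run.

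Secretory cells fold their export proteins in the endoplasmic reticulum, where chaperones such as BiP hold nascent chains and the protein disulfide isomerases join their cysteines. When folding demand exceeds capacity, the sensors IRE1 (Ern1), PERK (Eif2ak3) and ATF6 start the unfolded protein response, in which Xbp1, Atf6 and Atf4 drive genes for chaperones, degradation and amino acid supply. Pars tuberalis cells secrete thyrotropin, a disulfide-rich glycoprotein hormone, and are the tissue in which melatonin reports day length.

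Array medians lay between 6.98 and 7.03 on the log2 scale, and no 2 arrays held identical values. The difference between the 3' and 5' actin control signals, a measure of transcript integrity and labelling, was 1.90 ± 0.12 log2 under short days, 1.65 ± 0.12 under long days, 1.69 ± 0.09 in advance and 1.85 ± 0.13 in delay (SD, n = 12 each). By the phase of 15 clock genes, 2 long-day arrays departed from the long-day median, replicate 2 of ZT16 by 4.58 h and replicate 2 of ZT20 by -3.83 h. These shifts are opposite in sign and each near the 4 h between time points. An exchange of the 2 arrays was not tested, and both were kept under their labels. The clock-gene phase of the delay arrays was -4.83 to -2.67 h from their labelled time, against -1.08 to 1.33 h for the short-day arrays, -1.83 to 0.333 h in advance and -11.8 to -3.42 h (median -8 h) under long days, so that equal ZT is not equal clock phase between long and short days. The markers of the pars tuberalis were well measured, with a mean log2 level of 5 markers between 9.75 and 11.6 on all arrays. Those of pars distalis, neurons, astrocytes, tanycytes, oligodendrocytes and connective tissue were measured as well. List means were 10.59 to 11.31 for neurons, 11.2 to 11.8 for astrocytes, 10.58 to 11.14 for tanycytes and 9.30 to 10.31 for oligodendrocytes. The arrays do not tell which of these cells the members' signal came from. Blood cell and plasma cell markers were dim, with list means between 5.30 and 5.89. In such punches a change in the number of cells of a type and a change in RNA per cell cannot be told apart.

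A promoter element known to switch on genes of this response stood in some of the members' promoters. The endoplasmic reticulum stress element (ERSE), bound by ATF6 and XBP1 together with NF-Y, is CCAAT and CCACG separated by 9 bases, and ERSE-II is ATTGG, 1 base and CCACG. Windows from 250 bases before to 50 bases after the start site were found in RefSeq on build GRCm38.p6 for 34 of the 40 genes, in 38 windows, and were searched on both strands. ERSE stood in 26.3% of these windows and in 0.119% of all 32851 windows of the same length, members included, and ERSE-II in 5.26% and 0.0365%. The members were listed by name for folding and for this response, so their share is a description and not a test. The 10 genes with ERSE were Hspa5, Hsp90b1, Dnajc3, Creld2, Calr, Canx, Pdia6, Ero1b, Syvn1 and Derl3, and ERSE-II stood in Dnajb11 and Herpud1. CCACG alone, which lies inside both elements, was in 76.3% of the windows and 32.8% of all. The UPRE core, TGACG directly followed by TGG, was found in Txndc5 and Txndc11, which is 5.26% of the windows against 0.676% of all. The ATF4 composite element (TGATG, 1 base and AAT) and the cyclic AMP element (TGACG directly followed by TCA) were in none of the windows, against 0.965% and 1.79% of all, and the E-box CACGTG was in 13.2% against 7.15%. The 5 windows shown are those of the genes with either element and the smallest p between long and short days, of which Hsp90b1, Pdia6, Dnajb11 and Canx rose and Syvn1 fell. Each is given 5′ to 3′ on the gene's own strand with the matches in capitals.

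Hsp90b1, chr10:86705395-86705694, minus strand: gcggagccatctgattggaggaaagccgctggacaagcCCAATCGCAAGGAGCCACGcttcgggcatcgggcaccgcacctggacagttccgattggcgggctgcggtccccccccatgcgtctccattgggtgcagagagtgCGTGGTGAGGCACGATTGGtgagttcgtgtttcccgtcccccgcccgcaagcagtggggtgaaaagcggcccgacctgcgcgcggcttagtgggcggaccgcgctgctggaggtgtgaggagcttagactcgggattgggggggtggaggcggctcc
Syvn1, chr19:6046326-6046625, plus strand: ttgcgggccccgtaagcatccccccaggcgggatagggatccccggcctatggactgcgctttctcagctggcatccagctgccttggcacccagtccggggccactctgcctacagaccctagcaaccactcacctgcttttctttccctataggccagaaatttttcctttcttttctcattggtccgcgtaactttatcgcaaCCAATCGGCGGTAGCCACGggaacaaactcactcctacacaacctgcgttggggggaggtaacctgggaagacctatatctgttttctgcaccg
Pdia6, chr12:17266339-17266638, plus strand: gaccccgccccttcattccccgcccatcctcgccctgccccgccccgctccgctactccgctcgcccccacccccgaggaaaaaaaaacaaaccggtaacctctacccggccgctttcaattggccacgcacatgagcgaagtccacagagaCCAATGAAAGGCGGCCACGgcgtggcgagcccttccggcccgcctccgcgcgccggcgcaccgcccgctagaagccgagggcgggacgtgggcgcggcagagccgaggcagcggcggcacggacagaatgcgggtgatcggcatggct
Dnajb11, chr16:22857595-22857894, plus strand: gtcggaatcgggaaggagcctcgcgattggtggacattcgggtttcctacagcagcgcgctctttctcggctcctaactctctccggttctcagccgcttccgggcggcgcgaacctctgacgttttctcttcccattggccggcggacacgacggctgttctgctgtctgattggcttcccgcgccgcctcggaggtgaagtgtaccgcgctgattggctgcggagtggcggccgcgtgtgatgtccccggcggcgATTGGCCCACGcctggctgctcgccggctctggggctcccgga
Canx, chr11:50325624-50325923, minus strand: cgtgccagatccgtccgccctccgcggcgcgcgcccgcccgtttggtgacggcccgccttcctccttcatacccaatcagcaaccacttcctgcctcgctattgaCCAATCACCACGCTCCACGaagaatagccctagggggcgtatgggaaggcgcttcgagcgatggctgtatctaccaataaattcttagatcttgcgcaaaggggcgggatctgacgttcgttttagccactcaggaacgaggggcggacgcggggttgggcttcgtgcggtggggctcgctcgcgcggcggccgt

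The matches lie from -212 to -194 and, on the other strand, from -107 to -89 before the start site in Hsp90b1, from -44 to -26 in Syvn1, from -98 to -80 in Pdia6 and from -145 to -127 in Canx. The ERSE-II match of Dnajb11 lies after it, from 7 to 17. A match is a description of the letters and not a measured site. Of the 12 genes with either element, 8 rose and 4 fell between short and long days, and of the 22 with a window and neither element, 8 rose, 4 fell and 10 did not pass, where 46.7% of all genes passed. The difference between these 2 sets of members was not tested.

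The first comparison asked how these genes differed after 2 weeks of long days. Most of the chaperones and disulfide isomerases were higher under long days, led by Pdia4 and Sdf2l1, while the ubiquitin ligase gene Syvn1, the isomerase genes Txndc5 and Txndc11 and the transcription factor gene Xbp1 were lower. Of the 40, 17 rose and 9 fell, so that 65.0% passed, where passing means an adjusted p under 0.05 in limma's moderated test over all genes. Among all 18194 genes 46.7% passed, 17.6% higher and 29.1% lower. Only 1 of the 40, Trib3, was below the array median on some array, while all genes include dim ones. Here and below, the shares of all genes are not matched for signal level. The median difference of the 40 was 0.03 log2, with a median over all genes of -0.03. The changes were modest: 1 gene, Pdia4, passed 1.5-fold, and no member had all 12 long-day arrays on 1 side of all 12 short-day arrays, as 5.31% of all genes did. Of the 26 that passed, 15 had the same sign at all 6 time points.

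**Figure D1:**
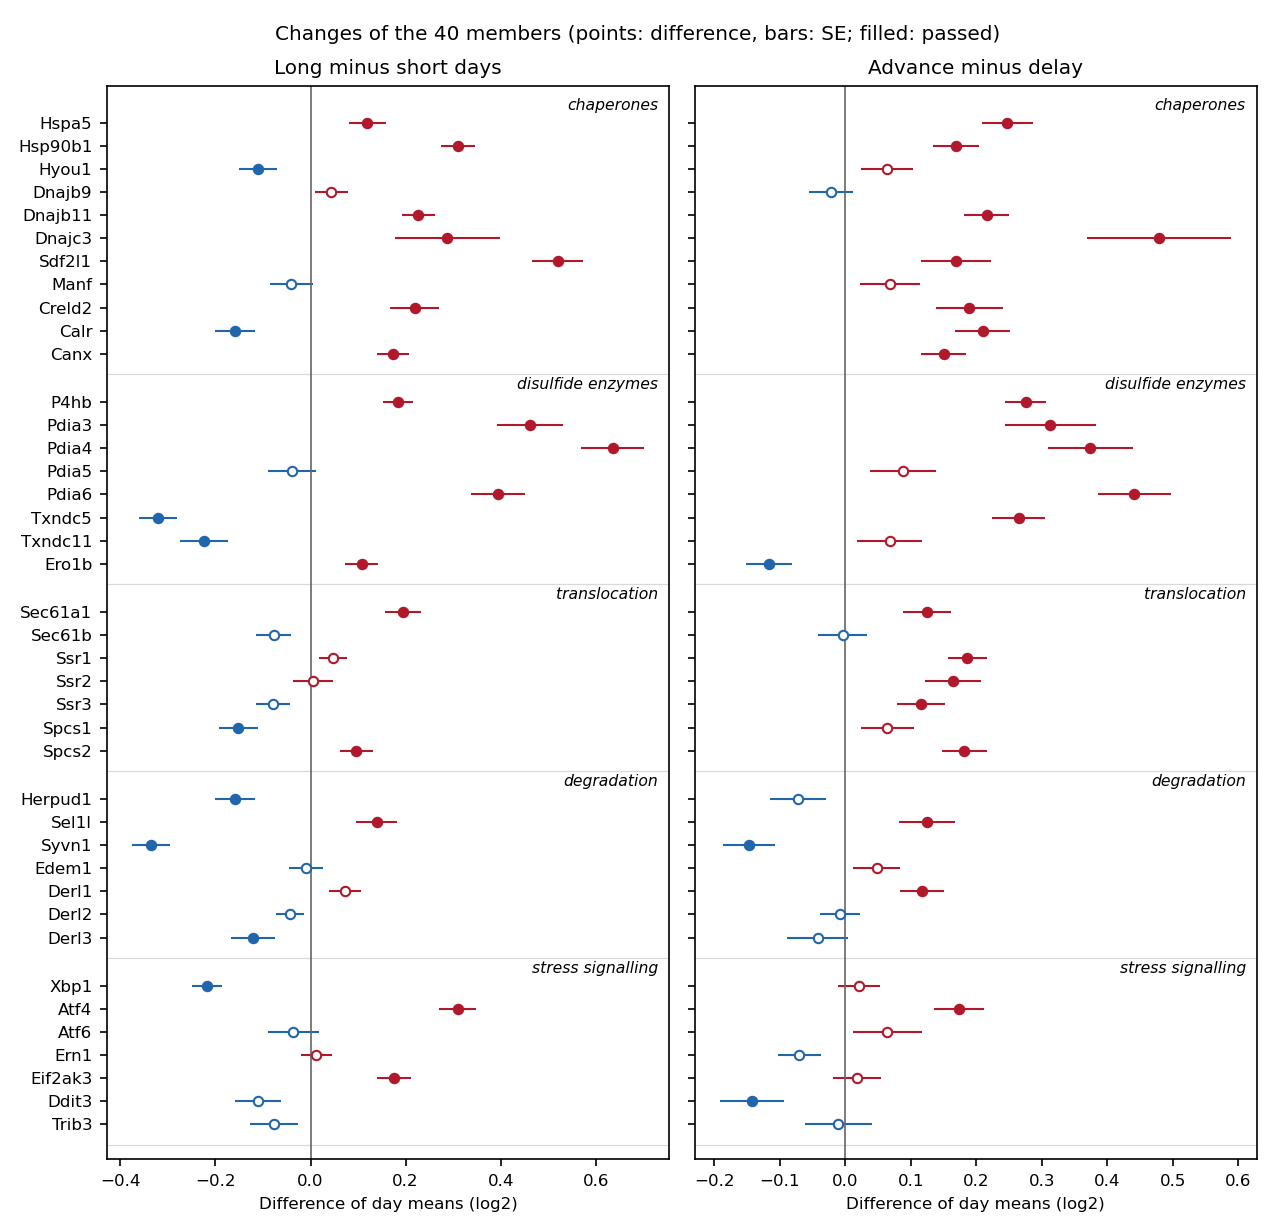
Difference of day means on the log2 scale (x axis) for each of the 40 genes (y axis, grouped by role), with long minus short days on the left and advance minus delay on the right. Points are differences, bars are SE, filled points passed an adjusted p of 0.05 and red marks positive values. Chaperones and disulfide enzymes lie mostly to the right of 0 in both panels, with Txndc5 and Calr lower on the left and higher on the right.

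Among the chaperones 7 of 11 rose and 2 fell. Sdf2l1, a partner of BiP that accompanies the co-chaperone Dnajb11, ranged from 8.02 (median 8.35) to 8.74 log2 over the short-day arrays and from 8.40 (median 8.92) to 9.37 under long days. Most of its long-day arrays lay above every short-day array, with overlap at the lower end, and the mean was 1.43-fold higher (difference 0.52 ± 0.05 SE, adjusted p = 1.07e-09). Hsp90b1, which encodes the chaperone GRP94, ranged from 12.01 (median 12.35) to 12.43 under short days and from 12.40 (median 12.61) to 12.77 under long days, where 2 short-day arrays reached above the lowest long-day array. Long-day means exceeded short-day means at each of the 6 times, on average by 0.31 ± 0.04 (adjusted p = 8.75e-09). Dnajb11, a BiP co-chaperone whose window was shown above, spanned 9.81 (median 9.95) to 10.12 under short days and 9.90 (median 10.23) to 10.41 under long days. The ranges overlapped widely and the difference was 0.23 ± 0.03 (adjusted p = 1.55e-06), higher at 5 of 6 time points.

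The other chaperones that rose were Dnajc3 (0.29), Creld2 (0.22), Canx (0.17) and Hspa5, the gene of BiP itself, with the smallest rise (0.12 ± 0.04, adjusted p = 0.0111). Calr and Hyou1 fell, by 0.16 and 0.11 on the log2 scale. Calreticulin (Calr) and calnexin (Canx) are the paired lectin chaperones of glycoproteins, and here Canx was higher and Calr lower at all 6 time points. Dnajb9 and Manf, 0.04 and -0.04, did not pass.

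In the disulfide group 5 of 8 rose and 2 fell. Pdia4, the isomerase ERp72, had short-day arrays from 8.93 (median 9.29) to 9.79 and long-day arrays from 9.63 (median 9.94) to 10.43. A single short-day array reached into the long-day range, and the mean was 1.55-fold higher (0.64 ± 0.07, adjusted p = 1.03e-09). Pdia3 (ERp57), which works with calnexin and calreticulin, ranged from 10.78 (median 11.41) to 11.57 under short days and from 11.37 (median 11.83) to 12.17 under long days, and 1 long-day array lay within the short-day range. The rise was 0.46 ± 0.07 (adjusted p = 1.15e-06). Pdia6 (P5) went from 10.80 (median 11.15) to 11.41 under short days and from 11.16 (median 11.56) to 12.00 under long days, with 3 long-day arrays inside the short-day range, and its difference was 0.39 ± 0.06 (adjusted p = 4.18e-07).

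P4hb, the classical protein disulfide isomerase, rose by 0.18 ± 0.03 (adjusted p = 9.15e-06), from a short-day range of 12.57 (median 12.74) to 13.02 to one of 12.78 (median 12.93) to 13.08. The ranges overlapped, since 1 short-day array stood above 10 of the 12 long-day arrays. Ero1b, the oxidase that recharges these isomerases, rose by 0.11 ± 0.03 (adjusted p = 0.0109). Txndc5 (ERp46) went the other way: its short-day arrays ranged from 10.87 (median 11.13) to 11.49 and its long-day arrays from 10.71 (median 10.80) to 10.97. It fell by 0.32 on the log2 scale (SE 0.04, adjusted p = 3.94e-08) and was lower at all 6 time points, although 5 long-day arrays lay above the lowest short-day array. Txndc11 fell by 0.22, and Pdia5 (-0.04) did not pass.

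**Figure D2:**
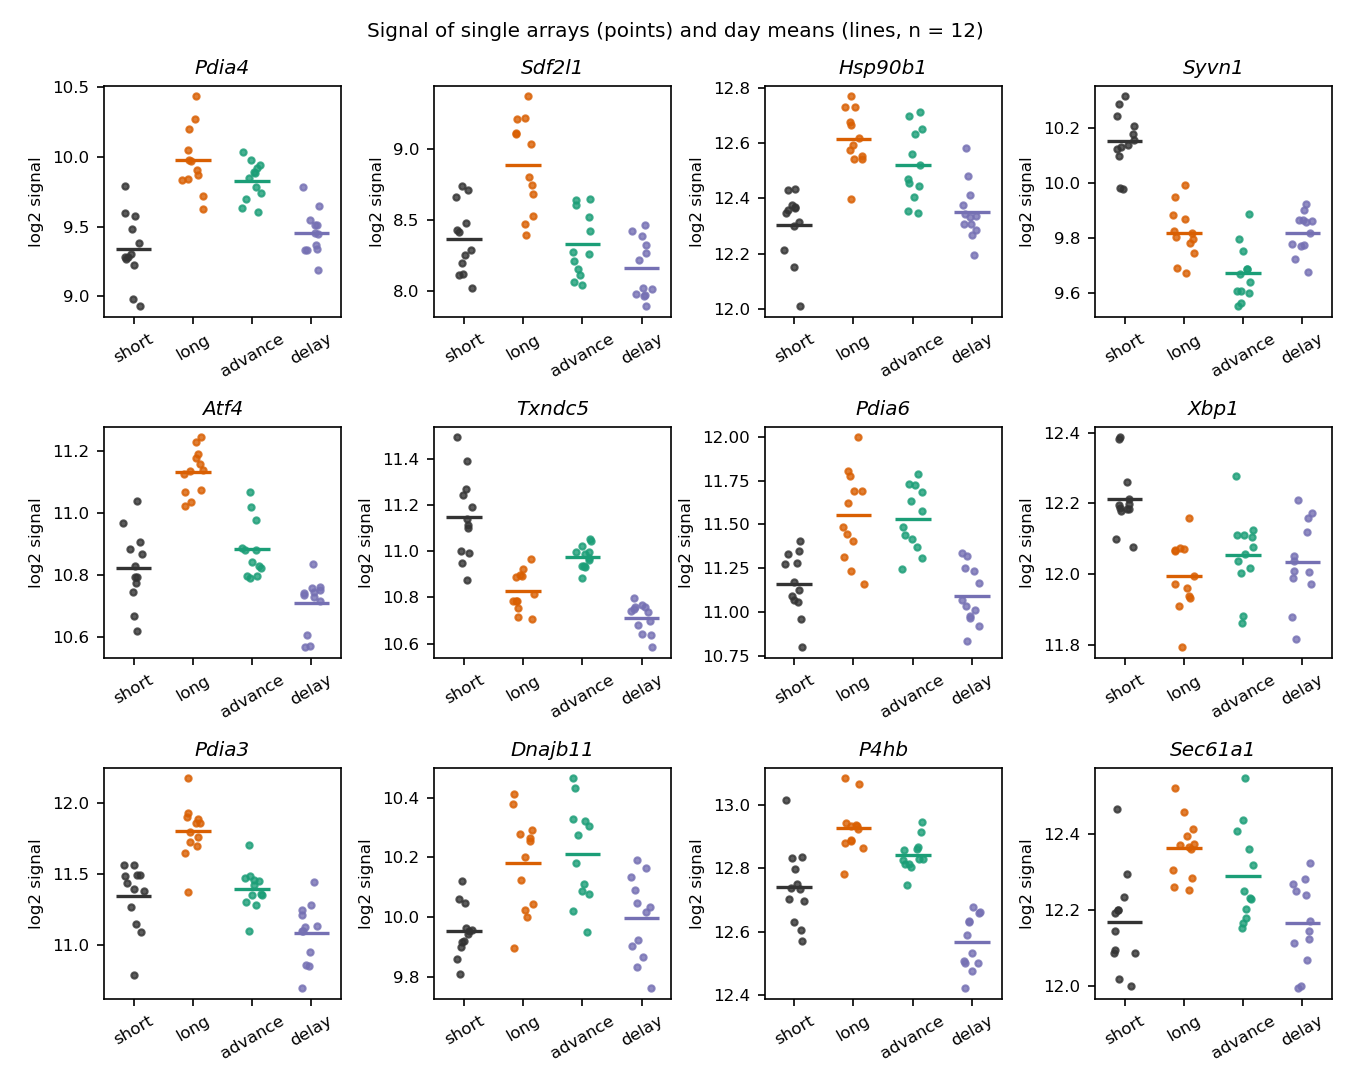
Log2 signal (y axis) on every array of the 12 members with the smallest p between long and short days, by condition (x axis), with points for single arrays and lines for the means of 12. Pdia4 and Pdia3 have their highest means under long days, Syvn1 is lower in all 3 long-photoperiod conditions than under short days, and Txndc5 and P4hb in delay lie below every advance array.

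Import genes moved little. Of 7, Sec61a1 and Spcs2 rose and Spcs1 fell, and the 4 others, Sec61b and the TRAP subunit genes Ssr1, Ssr2 and Ssr3, lay between -0.08 and 0.05 without passing. Sec61a1, the pore of the translocon, ranged from 12.00 (median 12.17) to 12.47 under short days and from 12.25 (median 12.37) to 12.52 under long days. 1 high short-day array stood above 11 of the 12 long-day arrays, and the groups differed by 0.19 ± 0.04 (adjusted p = 4.67e-05).

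Of 7 degradation genes Sel1l rose, Syvn1, Herpud1 and Derl3 fell, and Edem1, Derl1 and Derl2 did not pass. Syvn1, which encodes the ubiquitin ligase HRD1, ranged from 9.98 (median 10.15) to 10.32 under short days and from 9.67 (median 9.81) to 9.99 under long days. The groups met at their ends, by 1 long-day and 2 short-day arrays, and the fall was 1.26-fold (difference -0.33 ± 0.04, adjusted p = 1.71e-08). Sel1l, the adaptor of the same ligase complex, rose by 0.14 ± 0.04 (adjusted p = 0.00678). Herpud1, whose product assembles around that complex, fell by 0.16 in the day mean with 3 time points higher and 3 lower, as its daily course differed.

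In stress signalling Atf4 and Eif2ak3 rose, Xbp1 fell, and Atf6, Ern1, Ddit3 and Trib3 (-0.04, 0.01, -0.11 and -0.08) did not pass. Atf4, the factor translated when PERK is active, ranged from 10.62 (median 10.81) to 11.04 under short days and from 11.02 (median 11.14) to 11.24 under long days. The highest short-day array just reached the long-day range, and the rise was 0.31 ± 0.04 (adjusted p = 3.42e-08). Eif2ak3, PERK itself, rose by 0.18 ± 0.04 (adjusted p = 0.000128). Xbp1 ranged from 12.08 (median 12.19) to 12.39 under short days and from 11.79 (median 11.98) to 12.16 under long days. It fell by 0.22 on the log2 scale (SE 0.03, adjusted p = 7.29e-07) and was lower at all 6 time points, although 2 short-day arrays fell within the long-day range. Xbp1 splicing, by which IRE1 acts, was not measured here.

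With the actin signal as a covariate, 16 of the 40 passed, 11 higher and 5 lower, against 27.5% of all genes in that fit (11.3% higher, 16.2% lower). In that fit Pdia3 no longer passed (0.14, adjusted p = 0.068), and Pdia4 (0.42), Pdia6 (0.19) and Syvn1 (-0.19) kept their calls at smaller size. Beside these changes, 4 of the 5 measured pars tuberalis markers rose and none fell. Their mean level went from a range of 9.75 to 10.60 to one of 10.96 to 11.62. The 5 are Tshb, Cga, Mtnr1a, Eya3 and Pitx1, and their differences ran from 0.03 to 3.56 (median 0.90), so the list mean is not an even shift. Of 7 markers of plasma cells, another cell type rich in these genes, 1 fell and none rose. Ependymal and endothelial markers fell too, 4 of 7 each with none higher, from list means of 7.64 to 8.08 and 7.76 to 8.35 under short days to 7.37 to 7.62 and 7.72 to 7.96. Their part in the result was not tested. Other probe sets of a gene mostly shared the sign but not the size: a second set for Hsp90b1 gave 0.75, one for Canx 0.80 and one for Sec61a1 0.74, while a dim second set for Pdia4 gave 0.07 and 2 other sets for Atf4 gave 0.09 and -0.06. Of the 3 other Xbp1 sets, all were negative, at -0.28, -0.05 and -0.38, and the second Syvn1 set gave -0.38.

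The first long day was compared next, as advance against delay, both of 6-week-old animals with 16 h of light in all. Day means of the 40 genes were mostly higher in advance than in delay. The means include the delay arrays of ZT0, ZT4 and ZT8, which by label precede its added light if they belong to the same day. They also include the advance arrays of ZT16, the labelled time of light onset. The difference is thus one between groups, and the part of the added light in it was not tested. In all 21 were higher in advance, 3 were lower (Syvn1, Ero1b and Ddit3) and 16 did not pass. That is 60.0% of the members, against 24.1% of all genes, of which 10.3% were higher and 13.8% lower, and the median differences were 0.12 for the members and -0.02 for all genes. Of the 24 that passed, 17 had the same sign at all 6 time points. By role, 8 of 11 chaperones, 5 of 8 disulfide genes, 5 of 7 import genes, 2 of 7 degradation genes and 1 of 7 signalling genes were higher.

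P4hb ranged from 12.42 (median 12.56) to 12.68 in delay and from 12.75 (median 12.83) to 12.94 in advance, so that no array of 1 group reached the other. The difference was 0.28 ± 0.03 (adjusted p = 1.12e-07). Txndc5 was the other member without overlap, with 10.58 (median 10.74) to 10.80 in delay and 10.89 (median 10.98) to 11.05 in advance, and differed by 0.26 ± 0.04 (adjusted p = 1.01e-05). Of all genes 0.555% showed such separation. Pdia6 differed by 0.44 ± 0.06 (adjusted p = 6.55e-07), from 10.83 (median 11.05) to 11.34 in delay and 11.24 (median 11.53) to 11.79 in advance. Of its delay arrays 3 lay within the advance range.

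Hspa5 ranged from 13.23 (median 13.47) to 13.75 in delay and from 13.53 (median 13.72) to 13.97 in advance. The ranges overlapped, and BiP transcript was 1.19-fold higher in advance (0.25 ± 0.04, adjusted p = 1.89e-05), higher at all 6 time points. Its co-chaperone Dnajb11 differed by 0.22 ± 0.03 (adjusted p = 2.54e-05) and overlapped as well, with 9.76 (median 10.03) to 10.19 in delay and 9.95 (median 10.23) to 10.46 in advance. Ssr1, a subunit of the TRAP complex beside the translocon, ranged from 11.93 (median 12.00) to 12.11 in delay and from 12.09 (median 12.22) to 12.32 in advance. The ranges met at their ends, with 2 arrays of each, for a difference of 0.19 ± 0.03 (adjusted p = 1.97e-05). Pdia4 (0.37), Pdia3 (0.31) and Calr (0.21) were higher too. Syvn1 was lower in advance by 0.15 ± 0.04 (adjusted p = 0.00644) and at all 6 time points.

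Of the 17 members higher under chronic long days, 15 were also higher in advance than in delay, which is 88.2% of the first list and 71.4% of the second. The 2 comparisons share no array. Of all genes higher under long days 32.9% were also higher in advance than in delay, and these made up 56.4% of the second list. The actin signal moved in the same direction in both comparisons, lower in the condition with the higher member levels. With it as a covariate, 15 members passed between advance and delay, 14 higher and 1 lower, against 10.4% of all genes in that fit (5.56% higher, 4.86% lower), and Pdia6 was 0.31. Connective tissue markers were also higher in advance, 6 of 7 with none lower, and their mean level ranged from 10.86 to 11.22 in advance and from 10.56 to 10.91 in delay. Of the 5 pars tuberalis markers 3 were higher in advance, Cga (0.59), Tshb (0.50) and Eya3 (0.45), and none lower. Mtnr1a (0.18) and Pitx1 (-0.11) did not pass. The list means were 10.35 to 11.60 in advance and 10.25 to 10.75 in delay. Endothelial markers (2 of 7) were higher in advance with none lower. Oligodendrocyte (2 of 6), neuron (2 of 8) and ependymal, pars distalis and plasma cell markers (1 of 7 each) were lower with none higher. Tanycyte, astrocyte and microglia markers went both ways. The part of all these markers in the result was not tested. ZT0, ZT4 and ZT8 were lit in both groups and by label precede the added light of delay if they belong to the same day. There 9 members were higher in advance and none lower, against 8.76% of all genes, 5.54% higher and 3.22% lower.

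Both first-day groups were also set against the short-day group, with which they share the first 3 weeks of short days. The short-day group was older and had 2 more weeks of short days. Age, time on short days and light therefore cannot be told apart. These 2 comparisons use the same short-day arrays. In delay 20 members passed, 18 of them lower and only Ero1b and Ern1 higher. Among all genes 49.8% passed, 23.8% higher and 26% lower. The members' total share is thus that of the background, with more of it on the lower side. In advance 20 passed as well, 11 higher and 9 lower, against 51.4% of all genes, 22.2% higher and 29.3% lower. In advance 5 of 5 pars tuberalis markers and 5 of 7 connective tissue markers were higher than under short days with none lower, and 5 of 6 oligodendrocyte markers were lower with none higher. Neuron markers (4 of 8) and ependymal markers (3 of 7) were also lower with none higher, and 1 of 7 plasma cell markers was higher with none lower. In delay 3 of 5 pars tuberalis markers were higher and 1 lower, and 4 of 7 plasma cell markers were higher with none lower, from list means of 5.47 to 5.71 to ones of 5.72 to 5.89. Ependymal (4 of 7), neuron (3 of 8) and microglia markers (3 of 7) were lower in delay with none higher. Pars distalis (3 of 7), connective tissue (2 of 7) and blood cell markers (2 of 5) were higher with none lower. Their part was not tested. The fall in delay took in 6 of 11 chaperones, 4 of 8 disulfide genes, 4 of 7 import genes, 2 of 7 degradation genes and 2 of 7 signalling genes.

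Txndc5 and Syvn1 in delay lay below every short-day array, as 3.92% of all genes did in either direction. Txndc5 fell by 0.43 on the log2 scale (SE 0.04, adjusted p = 1.38e-10), from the short-day range given above to 10.58 to 10.80, and Syvn1 fell by 0.34 (SE 0.04, adjusted p = 1.96e-08), to 9.67 (median 9.84) to 9.92. In advance Syvn1, at 9.55 (median 9.65) to 9.89, was again below every short-day array (7.76% of all genes separated so), and its fall of 0.48 on the log2 scale (SE 0.04, adjusted p = 6.70e-12) was the strongest by p among the members. Herpud1 ranged from 10.42 (median 10.71) to 11.30 under short days, from 10.12 (median 10.35) to 10.71 in advance and from 10.15 (median 10.42) to 10.89 in delay. The ranges overlapped around 10.42 to 10.71, and the differences from short days were -0.40 ± 0.04 in advance (adjusted p = 1.22e-09) and -0.33 ± 0.04 in delay (adjusted p = 9.73e-08).

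Calr, the soluble lectin chaperone, fell by 0.32 on the log2 scale in delay (SE 0.04, adjusted p = 9.79e-08), from 12.45 (median 12.77) to 12.87 under short days to 12.22 (median 12.45) to 12.64. The lower part of the short-day range overlapped the upper part of the delay range. Ssr2, another TRAP subunit, went from 9.68 (median 9.95) to 10.17 under short days to 9.46 (median 9.65) to 9.79 in delay and fell by 0.30 (SE 0.04, adjusted p = 4.98e-07). Most of its delay arrays lay below the short-day range. Dnajc3, the co-chaperone known to restrain PERK, ranged from 10.56 (median 10.98) to 11.16 under short days and from 9.54 (median 10.34) to 10.73 in delay, the widest spread of any member, and fell by 0.75 (SE 0.11, adjusted p = 9.10e-07). The 4 other Dnajc3 probe sets did not share that fall, with delay minus short differences from -0.18 to 0.25.

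In advance, Dnajb11 (0.26 ± 0.03, adjusted p = 1.18e-07), Pdia4 (0.49 ± 0.07, adjusted p = 1.20e-07), Pdia6 (0.38 ± 0.06, adjusted p = 7.76e-07) and Hsp90b1 (0.22 ± 0.04, adjusted p = 4.43e-06) were higher than under short days. Their delay minus short values, 0.04, 0.11, -0.07 and 0.05, did not pass. Pdia4 in advance ranged from 9.60 (median 9.87) to 10.03, overlapping the short-day range at its top, and Hsp90b1 from 12.35 (median 12.49) to 12.71. For Hsp90b1 the mean of all its probe sets gave -0.01 in place of 0.22, since the second set fell by 0.24 in advance and by 1.12 in delay.

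The ZT0, ZT4 and ZT8 arrays by their labels precede the added light of delay if they belong to the same day. There 18 members differed between delay and short days, 2 higher and 16 lower. Their total share was like the 45.6% of all genes (18.7% higher, 26.9% lower), with more of it on the lower side. At ZT12, ZT16 and ZT20 there were 11, 3 higher and 8 lower, against 28.2% of all genes (15.5% higher, 12.7% lower). A test of the later against the earlier 3 time points passed for 1 member, Herpud1, which was 0.55 lower than under short days at the earlier times (SE 0.06, adjusted p = 1.48e-08) and -0.12 ± 0.06 from them at the later times (adjusted p = 0.16). The change between them was 0.43 ± 0.09 (adjusted p = 0.0126), a test that 1.04% of all genes passed, 0.846% upward and 0.198% downward. In advance at ZT16, the labelled time of light onset, 5 members differed from short days against 16.8% of all genes (9.11% higher, 7.66% lower). Hsp90b1, Dnajb11 and Pdia6 were higher, and Herpud1 and Syvn1 lower. Over the 5 time points after onset 18 members passed, 10 higher and 8 lower, against 48.9% of all genes (20.1% higher, 28.8% lower).

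**Figure D3:**
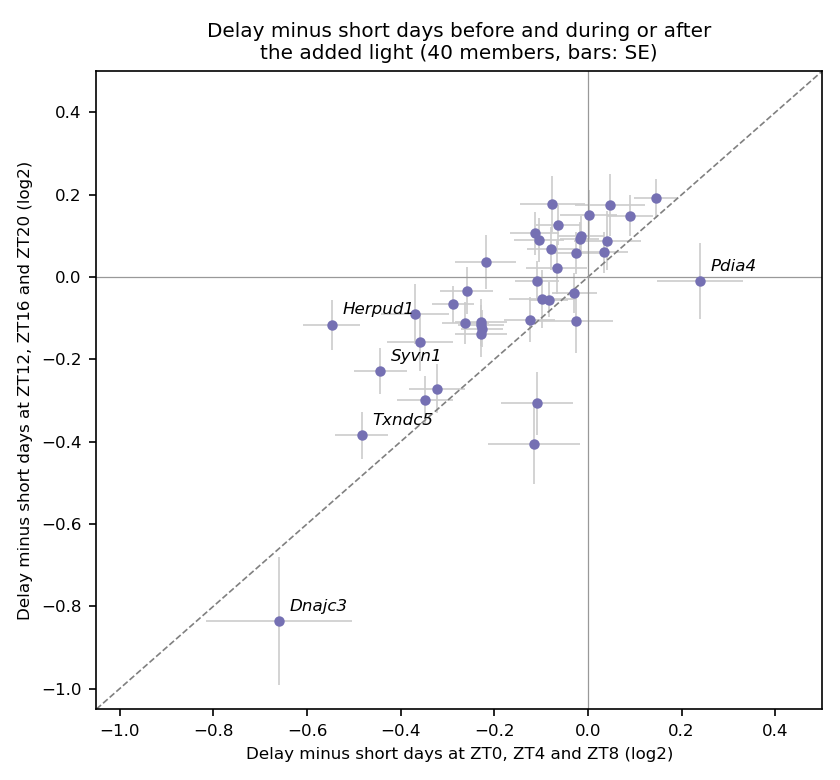
Delay minus short-day difference at ZT0, ZT4 and ZT8 (x axis) and at ZT12, ZT16 and ZT20 (y axis), both log2, for the 40 genes with SE bars and a dashed line of equal values. Points lie mostly left of 0, and Herpud1 lies well above the dashed line, at -0.55 and -0.12.

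The response over the first 4 h of added light was tested as the step between ZT16 and ZT20 in advance, or between ZT8 and ZT12 in delay, minus the same change under short days. No member passed for the late-night light, for the evening light or for their difference in limma's test, where 0.22%, 0.0385% and 0.159% of all genes did (for the difference 0.0824% higher and 0.0769% lower), and 2, 4 and 3 members had an unadjusted p under 0.05, against 6.2%, 7.58% and 10.4% of all genes. The member values farthest from 0 were 0.34 ± 0.24 for Pdia3 in late-night light (95% interval -0.16 to 0.83, adjusted p = 0.865), -0.49 ± 0.19 for Sdf2l1 in evening light (95% interval -0.88 to -0.11, adjusted p = 0.627) and 0.73 ± 0.32 for Pdia4 in their difference (95% interval 0.07 to 1.39, adjusted p = 0.455). These intervals rest on 2 arrays per group.

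Over the day few of the 40 genes passed the test of variation, and Herpud1 passed in all 4 conditions. Variation between the 6 time points passed for 4 members under short days (against 8.91% of all genes), 3 under long days (against 1.63%), 6 in advance (against 2.58%) and 2 in delay (against 1.52%). These counts depended on single arrays and on the fit. Without 1 array they were 2 to 7 under short days, 2 to 4 under long days, 2 to 7 in advance and 1 to 4 in delay. Under short days 13 arrays, 5 of them short-day arrays, gave 2 when left out, and ZT0 replicate 1 gave 7. In advance either array of ZT4, ZT8 or ZT12 gave 2 or 3, and in delay replicate 1 of its own ZT16 gave 1 and either long-day ZT16 array gave 4. A cosine gave 10 under short days and a replicate block within each condition 8. The range of time-point means had a median over members of 0.26 log2 under short days, 0.25 under long days and 0.22 in each first-day group. Members of import and stress signalling did not pass the test between time points in any condition. By the cosine under short days Sec61a1, Sec61b and Ddit3 did (adjusted p = 0.0194, 0.0221 and 0.0192).

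Herpud1 under short days measured 10.71 and 10.54 at ZT0, 11.30 and 10.94 at ZT4, 11.16 and 10.86 at ZT8, 10.86 and 10.71 at ZT12, 10.42 and 10.65 at ZT16, and 10.63 and 10.58 at ZT20. It was highest by day and lowest at mid-night (adjusted p = 0.00068). Under long days the arrays read 10.36 and 10.35 at ZT0, 10.39 and 10.34 at ZT4, 10.51 and 10.55 at ZT8, 10.78 and 10.90 at ZT12, 10.87 and 10.70 at ZT16, and 10.73 and 11.01 at ZT20. By ZT the order was turned: the morning was low and the evening and night high, and no array of ZT0 to ZT8 reached those of ZT12 to ZT20 (adjusted p = 0.00125).

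In advance Herpud1 was low at ZT16 (10.17 and 10.14), ZT20 (10.12 and 10.25) and ZT0 (10.17 and 10.19), and high at ZT4 (10.52 and 10.56), ZT8 (10.71 and 10.66) and ZT12 (10.46 and 10.58), without overlap (adjusted p = 0.00107). In delay it was low at ZT0 (10.27 and 10.15) and ZT4 (10.32 and 10.20), rose to 10.63 and 10.66 at ZT8 and 10.89 and 10.69 at ZT12, and was at 10.47 and 10.47 at ZT16 and 10.36 and 10.27 at ZT20 (adjusted p = 0.00231). A 24 h cosine placed the peak at ZT 6.30 under short days, 15.4 under long days, 7.82 in advance and 11.5 in delay. The median clock-gene offsets from labelled time were 0.0416, -8, -0.834 and -3.62 h in the same order. The difference in course between long and short days passed (adjusted p = 1.75e-05, as 4.3% of all genes did), and it passed too when arrays were matched by clock time instead of ZT (adjusted p = 0.0101). Neither matching aligns clock-gene phase, and a difference in course beyond that phase was not tested.

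**Figure D4:**
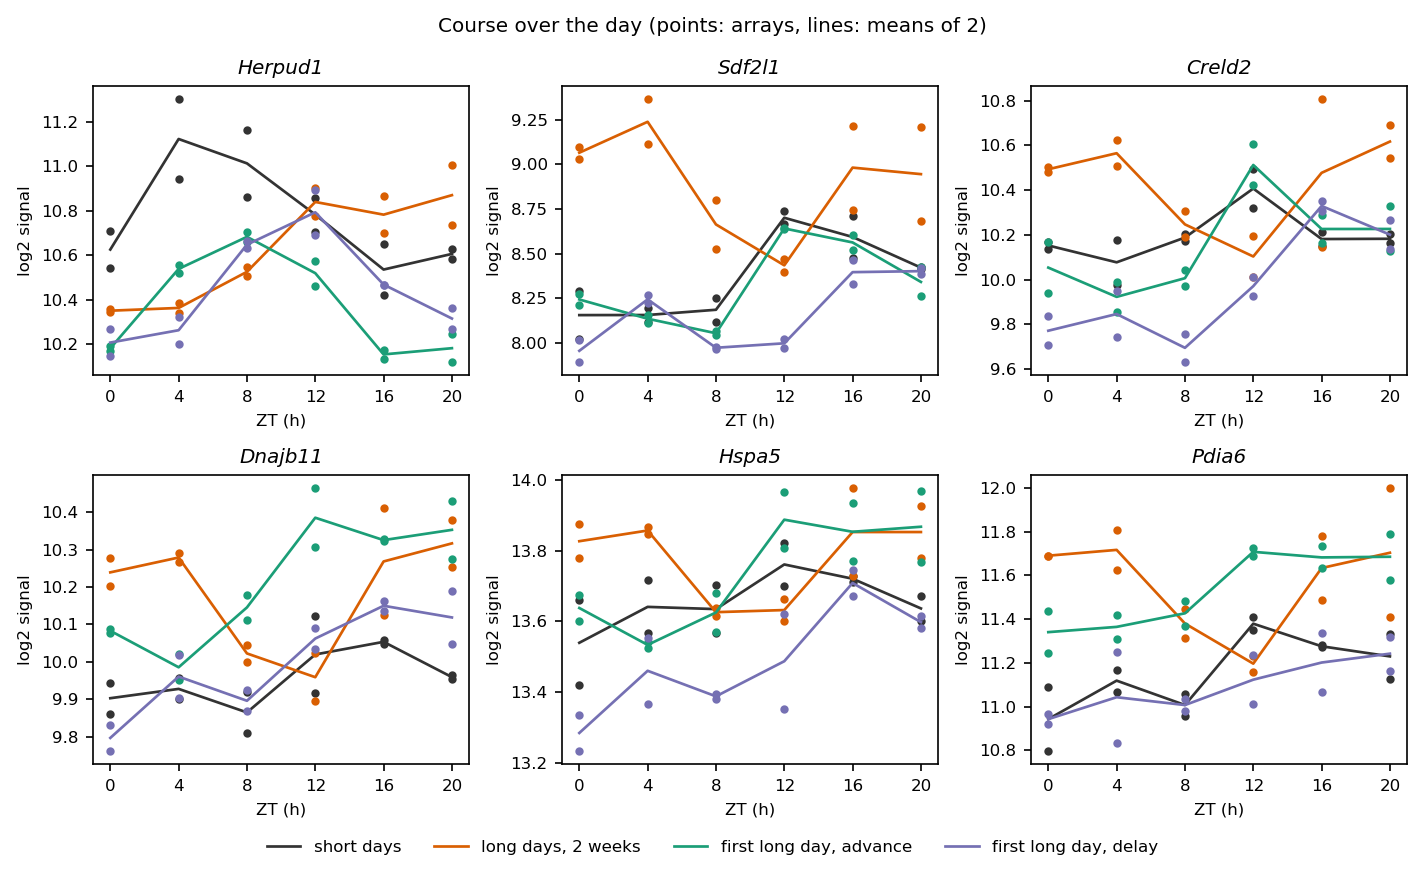
Log2 signal (y axis) against ZT in hours (x axis) of 6 members in the 4 conditions, with points for single arrays and lines through the means of 2. Herpud1 peaks at ZT4 under short days and lies lowest at ZT0 and ZT4 under long days, and Sdf2l1 and Dnajb11, which varied under long days, have their lowest long-day means at ZT12.

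Sdf2l1 had the second clear course. Under short days it was low at ZT0 (8.29 and 8.02), ZT4 (8.19 and 8.12) and ZT8 (8.12 and 8.25), high at ZT12 (8.66 and 8.74) and ZT16 (8.71 and 8.47), and at 8.42 and 8.43 at ZT20. Night arrays were all above day arrays (adjusted p = 0.00828). Under long days it was highest at ZT0 (9.10 and 9.03) and ZT4 (9.37 and 9.11), fell to 8.80 and 8.52 at ZT8 and 8.47 and 8.40 at ZT12, and was 8.75 and 9.22 at ZT16 and 9.21 and 8.68 at ZT20. The pairs at ZT16 and ZT20, which hold the arrays with an unusual clock phase, were far apart, and the test passed with and without those arrays in the fit (adjusted p = 0.0018 and 8.63e-06).

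In advance Sdf2l1 read 8.52 and 8.60 at ZT16, 8.26 and 8.42 at ZT20, 8.28 and 8.21 at ZT0, 8.11 and 8.16 at ZT4, 8.06 and 8.04 at ZT8, and 8.64 and 8.64 at ZT12 (adjusted p = 0.0178). The rise from ZT8 to ZT12 matched that under short days in time. In delay the arrays read 7.98 and 7.97 at ZT8 and 8.02 and 7.97 at ZT12. The test of this step against that under short days did not pass (-0.49, adjusted p = 0.627). The delay values were higher at ZT16 (8.33 and 8.46) and ZT20 (8.42 and 8.38), although the variation missed the threshold (adjusted p = 0.0695, or 0.00411 without both long-day arrays of unusual clock phase). The course differed between long and short days by ZT (adjusted p = 0.00012) and missed the threshold when matched by clock time (adjusted p = 0.0972). Each of 5 arrays in advance, both of ZT8, both of ZT12 and replicate 2 of ZT16, ended the advance call when left out, with adjusted p between 0.0572 and 0.0823.

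Creld2, an endoplasmic reticulum protein induced by stress, varied in advance and delay and missed the threshold under long days (adjusted p = 0.0749, or 0.00253 without both arrays of unusual clock phase). In delay it measured 9.84 and 9.71 at ZT0, 9.95 and 9.74 at ZT4, 9.76 and 9.63 at ZT8, 10.01 and 9.93 at ZT12, 10.35 and 10.31 at ZT16, and 10.14 and 10.27 at ZT20. The last 2 time points were above all others (adjusted p = 0.0081, or 0.0573 without replicate 1 of ZT16). In advance the highest values were 10.42 and 10.60 at ZT12 and the lowest 9.99 and 9.86 at ZT4 (adjusted p = 0.0315). That call was lost without any of 6 arrays, both of ZT4, ZT8 and ZT12 (adjusted p between 0.0543 and 0.326). At ZT12 Creld2 read 10.49 and 10.32 under short days, its highest pair there, and 10.01 and 10.20 under long days, its lowest. Its course difference (adjusted p = 0.0268) was lost without short-day ZT12 replicate 1 (0.133), long-day ZT4 replicate 2 (0.0546) or long-day ZT12 replicate 1 (0.167), and by clock time (0.519).

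Dnajb11 varied under long days, with 10.20 and 10.28 at ZT0, 10.29 and 10.27 at ZT4, 10.04 and 10.00 at ZT8, 9.90 and 10.02 at ZT12, 10.13 and 10.41 at ZT16, and 10.38 and 10.25 at ZT20. The ZT8 and ZT12 arrays were the lowest 4 (adjusted p = 0.0254). Without long-day ZT8 replicate 1 or 2, ZT12 replicate 1 or ZT20 replicate 1 the adjusted p was between 0.0581 and 0.201, and with the actin covariate it was 0.0678. In advance it read 10.32 and 10.33 at ZT16, 10.27 and 10.43 at ZT20, 10.08 and 10.09 at ZT0, 10.02 and 9.95 at ZT4, 10.18 and 10.11 at ZT8, and 10.31 and 10.46 at ZT12. The short-day night was high and the short-day day low (adjusted p = 0.00603, or 0.053 without replicate 2 of ZT4). Hspa5 and Manf also passed in advance (adjusted p = 0.0492 and 0.0321), and lost the call without any of 31 and of 7 of the 48 arrays, with adjusted p up to 0.17 and 0.202. Hspa5 measured 13.77 and 13.94 at ZT16, 13.77 and 13.97 at ZT20, 13.67 and 13.60 at ZT0, 13.53 and 13.54 at ZT4, 13.68 and 13.57 at ZT8, and 13.81 and 13.97 at ZT12, again highest over the short-day night.

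Pdia6 and Derl1 had courses that differed between long and short days (adjusted p = 0.0302 and 0.0418). Pdia6 was higher under long days at ZT0 (11.69 and 11.69, against 11.09 and 10.80) and ZT4 (11.81 and 11.62, against 11.17 and 11.07) and was lower at ZT12 (11.16 and 11.23, against 11.35 and 11.41). Leaving out any of 8 arrays ended this call, namely short-day ZT0 replicate 2, either array of short-day ZT12, of long-day ZT0 or of long-day ZT12, and long-day ZT4 replicate 1, with adjusted p between 0.05 and 0.145. Matched by clock time it was 0.553, and for the mean of all its probe sets 0.135. Derl1, part of the channel that carries proteins out for degradation, was lowest under short days at ZT12 (12.80 and 12.92) and highest under long days at ZT4 (13.18 and 13.19). Its call was lost without any of 22 arrays (adjusted p up to 0.11) and when matched by clock time (0.71), for the mean of all its probe sets (0.615) and with the actin covariate (0.0733). Txndc5 and P4hb passed under short days near the threshold (adjusted p = 0.0426 and 0.0492). Leaving out any of 14 and 33 of the 48 arrays ended these calls, with adjusted p up to 0.119 and 0.296.

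Likeness of course was measured against Hspa5. Over the 24 group means, each taken as its deviation from the mean of its condition, Hspa5 was most like Dnajb11 (r = 0.95), Manf (0.918), Creld2 (0.899), Pdia6 (0.876) and Sdf2l1 (0.831) among the members, while its r with Herpud1 was -0.131. These values describe points that share arrays and processing.

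Of 176 other genes of the same pathways, 113 passed between long and short days, 50 higher and 63 lower, which is 64.2% against the background of 46.7% and close to the share among the members. They did not share one direction. Of 26 other chaperone and lectin genes 3 rose and 12 fell, among them Sec63, a J-domain partner of the translocon, higher by 0.41 and Nucb1, a calcium-binding protein of the Golgi, lower by 0.62 on the log2 scale. Other disulfide genes split 5 and 5 of 18, other import genes 9 and 8 of 28, other degradation genes 8 and 7 of 26, other signalling genes 8 and 9 of 22, and known Atf4 targets 8 and 12 of 28. Of 28 genes of transport between endoplasmic reticulum and Golgi 9 rose and 10 fell, with Sec24a of the vesicle coat higher by 0.48 and the retrieval receptor gene Kdelr2 lower by 0.47 on the log2 scale. Between advance and delay 46 were higher and 18 lower, where 10.3% of all genes were higher and 13.8% lower, and among the import genes 14 of 28 were higher and 1 lower.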

How the data were processed

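Expression was measured on 48 single-colour arrays of 45101 probe sets. The deposited values are log2 signals, made with RMA in R 2.8.0 per the submitters' processing notes, and were used as given, and RMA corrects background and normalizes between arrays. Precision is set by the number of arrays, 2 per group. The array annotation gives 1 gene symbol for 34958 probe sets, several for 932, which named no gene, and none for 9211.

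All 18194 genes were fitted together over 24 groups (condition and time point) with limma 3.58.1 in R 4.3.3, with an intensity trend in the variance, and p-values were adjusted by Benjamini-Hochberg over all genes at 0.05. Day means are averages of the 6 time points. No label says that arrays of 1 group came from separate cohorts beyond the repeat of the procedure, so p-values measure the spread between these arrays. Scripts were tested on simulated data.

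The members, gene lists and markers were chosen with earlier results of these data known. Values by array are given for the 12 members with the smallest p between long and short days, the 4 with the smallest p in each test of daily variation and course, and up to 6 called in each other contrast. Up to 3 other genes per list were allowed a name by p. Creld2, Hspa5 and Manf in advance, Derl1, and light-response values were given as called or extreme members.

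Replicate numbers were checked as pairs by correlating deviations from group means: the median r was 0.0328, 0.238, 0.0698 and 0.273 within short days, long days, advance and delay, with values below 0 in 3 of the 4 and all above 0 under long days. The numbers did not pair throughout, and the fit carries no replicate block. Alternatives were a replicate block, overall or within condition, no variance trend, genes above the median level, the mean of all probe sets, centred arrays, the actin signal as a covariate, clock-time matching, a cosine, single arrays left out, both unusual long-day arrays left out, and parts of the day. Protein sequences were not used here.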

Additional observations from a re-analysis of the deposited data

Results flagged for a closer look

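The course over the day differed between long and short days in limma's test for 5 members: Herpud1 (adjusted p = 1.75e-05), Sdf2l1 (0.00012), Creld2 (0.0268), Pdia6 (0.0302) and Derl1 (0.0418). The difference between delay and short days changed between the earlier and the later 3 time points for Herpud1 (adjusted p = 0.0126).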

How the results depend on the processing

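Counts are members passing limma's adjusted p of 0.05. With the actin signal as a covariate 16 passed between long and short days in place of 26, 15 between advance and delay in place of 24, and 4 varied in delay in place of 2. Parts of the day, chosen after seeing the data, gave 5 for advance against short days at ZT16 (20 in all), 11 for delay against short days at ZT12 to ZT20 (20) and 9 for advance against delay at ZT0 to ZT8 (24). Variation under short days (4) became 2 without the variance trend, 2 with centred arrays and 10 by cosine. Under long days (3) it became 5 by cosine and 5 without both unusual long-day arrays, which gave 4 in delay. Matching by clock time left 1 course difference of 5. With a replicate block the counts were 29 for long against short days, 20 for advance and 22 for delay against short days and 24 for advance against delay, and with the block within each condition 8 varied under short days. Leaving out single arrays gave 23 to 28 between long and short days, 19 to 21 for advance and 20 to 23 for delay against short days, 21 to 24 between them, 2 to 7 for variation under short days, 2 to 4 under long days, 2 to 7 in advance, 1 to 4 in delay and 2 to 6 for the course. The light responses stayed at 0 in each alternative run. For the mean of all probe sets Hsp90b1 in advance turned from 0.22 to -0.012 (adjusted p = 0.906). The cause of these shifts was not tested. Of the values for named members 135 lost and 8 gained their call when 1 array was left out, with 2401 the same, and 25 lost and 8 gained it under other alternatives, with 443 the same.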
